A study of Homo sapiens with 12 samples.

Results

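C/D box small nucleolar RNAs (snoRNAs) were measured in 2 human non-small-cell lung cancer lines in which the neurotrophin receptor gene NGFR had been targeted by siRNA. Members were the rows of the gene table whose symbol starts with SNORD, that lie on chromosomes 1 to 22 or X and that had a mean of at least 10 read counts over the 12 libraries, with 1 row kept for each set of identical counts. This rule chose 165 of 401 SNORD rows, in a table of 64253 genes. Of the 373 SNORD rows on these chromosomes 208 lay under the minimum, and 165 of the 401 rows had no count in any library. Just inside it were SNORD116-27 with a mean of 11.2 counts, SNORD116-25 with 12.4, SNORD98 with 12.6 and SNORD105 with 13.8, and just outside were SNORD7 with 9.75, SNORD111 with 9.67, SNORD116-26 with 8 and SNORD109B with 7.92. The mean count therefore chose the members, and the sums and levels given for them are descriptions. The 165 rows carry 155 symbols, and rows that share a symbol are named with their gene identifier.

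The 4 groups were H460 cells with NGFR siRNA (siNGFR), H460 cells with control siRNA (siCont), H1299 cells with siNGFR and H1299 cells with siCont, with 3 libraries each. H460 carries wild-type p53, the tumour suppressor that induces NGFR, whereas H1299 is p53-deficient, and the pair of lines was used to ask which effects of the knockdown depend on p53. The Ion Torrent libraries were made from whole-cell RNA after ribosomal RNA had been removed, and the deposited columns number the H460 libraries 4 to 6 and the H1299 libraries 1 to 3. The labels call the libraries biological replicates and say no more of the cultures, so p-values measure the spread between these libraries. The lines share no column number, and any difference in their preparation could not be told apart from the line.

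C/D box snoRNAs are short nucleolar RNAs named after the conserved C box near the 5′ end and D box near the 3′ end. Together with fibrillarin, NOP56, NOP58 and SNU13 they form particles that methylate the 2′-hydroxyl of ribose at positions of ribosomal and small nuclear RNAs picked by base pairing next to the D box. A few members, such as U3, U8, U14 and U22, serve the cleavage of the ribosomal RNA precursor instead of, or beside, its methylation. In human cells most are cut from introns of host genes, many of which encode ribosomal proteins or are noncoding snoRNA host genes (SNHG), while U3, U8 and U13 are transcribed from promoters of their own.

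GENCODE 29 (GRCh38) held a transcript for 160 of the 165 members, of 64 to 1236 bases with a median of 85. The letters TGATGA, the consensus C box, lay within the first 25 bases of 106 of them (66.2%), the letters CTGA, the consensus D box, within the last 25 bases of 156 (97.5%), and both in 105 (65.6%), against 0.671%, 12.1% and 0.671% of 149 H/ACA box (SNORA) transcripts searched in the same way on the transcribed strand. The sequences below, read from the GENCODE 29 transcripts, show the members on which the results turn, with the C box and the D box in capitals. The first 3 are single-copy RNAs named in the comparisons, the next is U3 (where the capitals mark the last TGATGA), and the last 3 are copies of SNORD116 from the imprinted region 15q11.
SNORD43: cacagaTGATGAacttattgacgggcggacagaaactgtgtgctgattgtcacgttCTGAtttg
SNORD67: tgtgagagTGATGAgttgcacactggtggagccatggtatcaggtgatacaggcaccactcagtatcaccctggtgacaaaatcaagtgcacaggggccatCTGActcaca
SNORD69: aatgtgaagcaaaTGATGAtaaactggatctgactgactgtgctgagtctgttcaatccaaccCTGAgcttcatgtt
SNORD3A: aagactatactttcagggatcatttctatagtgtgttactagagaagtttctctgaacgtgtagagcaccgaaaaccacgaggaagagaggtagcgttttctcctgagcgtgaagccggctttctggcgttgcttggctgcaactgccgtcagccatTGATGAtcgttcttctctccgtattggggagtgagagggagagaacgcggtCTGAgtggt
SNORD116-3: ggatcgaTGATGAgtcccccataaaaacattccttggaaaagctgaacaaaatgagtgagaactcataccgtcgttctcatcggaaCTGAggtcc
SNORD116-23: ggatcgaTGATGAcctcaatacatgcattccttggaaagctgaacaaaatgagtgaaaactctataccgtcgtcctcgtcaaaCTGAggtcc
SNORD116-25: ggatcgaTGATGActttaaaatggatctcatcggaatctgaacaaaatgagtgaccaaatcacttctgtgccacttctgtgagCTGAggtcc

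SNORD67 lies at chr11:46762389-46762499 (minus strand) in an intron of CKAP5 and SNORD69 at chr3:52692736-52692812 (plus strand) in an intron of GNL3. SNORD43 lies at chr22:39319050-39319113 (minus strand) within RPL3 and overlaps an annotated exon. The U3 transcript shown lies at chr17:19188016-19188232 (plus strand) with no host. SNORD116-3, SNORD116-23 and SNORD116-25 lie at chr15:25056860-25056954, chr15:25091786-25091877 and chr15:25097663-25097754, all on the plus strand in introns of SNHG14. In all, 151 members had 1 of 66 host genes on the same strand, and 83 overlapped an annotated exon of the host, whose reads cannot be told from theirs in these counts.

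The libraries held 16672164 to 36116823 counts. NGFR itself had 0 to 3 counts per H460 siNGFR library, 1 to 3 per H460 siCont library, 0 or 1 per H1299 siNGFR library and 1 to 6 per H1299 siCont library, so the knockdown could not be checked at this depth. CDKN1A, the p53 target that encodes p21, had 1761 to 2555 counts in H460 siNGFR and 893 to 1057 in H460 siCont libraries, and 143 to 489 in H1299 siNGFR and 336 to 483 in H1299 siCont libraries. At a common library size (CPM) this was 88.2 to 110.5 in H460 siNGFR and 36.1 to 41.3 in H460 siCont libraries. In H1299 it was 6.77 to 14.5 CPM in siNGFR and 19.4 to 20.9 CPM in siCont libraries, without overlap. The log2 fold change was 1.36 in H460 (edgeR adjusted p = 2.04e-04) and −1.07 in H1299 (edgeR adjusted p = 0.260). Keratins KRT8 and KRT18 were high in all 12 libraries, whereas the epithelial markers EPCAM and CDH1 had at most 6 counts, the leukocyte and liver markers PTPRC, CD3E and ALB at most 3, and COL3A1, a fibroblast marker, had 491 to 643 counts in H460 and at most 4 in H1299. Library 3 of H1299 siNGFR lay near the siCont libraries, and results that rest on it are given with and without it. With it, 0.0211% of 18921 genes passed the test in H1299, and without it 27.9% did.

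U3, the most abundant C/D RNA and the one that directs the first cleavages of the ribosomal RNA precursor towards 18S, carried nearly all counts of the class. The 165 members took 8.55%, 10.9% and 7.93% of all counts in H460 siNGFR libraries, against 7.07%, 9.31% and 8.13% in H460 siCont libraries, and 19.0%, 15.05% and 14.8% in H1299 siNGFR libraries, against 13.7%, 13.5% and 15.6% in H1299 siCont libraries. The groups overlapped within each line, whereas every H1299 library lay above every H460 library. In these bulk libraries fewer expressing cells and less RNA per cell cannot be told apart. An exact two-sided permutation test over libraries gave p = 0.5 in H460 and p = 0.3 in H1299, where 3 against 3 cannot go below 0.1. The 6 U3 rows made up 8.92% ± 1.54 of counts in H460 siNGFR and 7.92% ± 1.07 in H460 siCont libraries (SD, n = 3). These sums count some reads more than once, because both rows of SNORD3D cover the same bases. Per kilobase of annotated length, the 8 members with the most counts were the 6 U3 rows, SNORD17, a 28S guide, and SNORD10, in no role list.

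Without U3, the other 159 members took well under 1% of the counts. Their share was 0.194%, 0.194% and 0.191% in H460 siNGFR libraries, against 0.192%, 0.293% and 0.288% in H460 siCont libraries (log2 ratio −0.42, exact permutation p = 0.3). It was 0.328%, 0.357% and 0.241% in H1299 siNGFR libraries, against 0.217%, 0.233% and 0.176% in H1299 siCont libraries (log2 ratio 0.56, exact permutation p = 0.1, the smallest this design allows). In H1299 the groups did not overlap, and in H460 siCont library 4 lay among the siNGFR libraries. Other short RNAs moved over the same libraries. The summed share of annotated genes shorter than 400 bases was 53.05% ± 2.53 in H460 siNGFR and 44.9% ± 2.83 in H460 siCont libraries, and 46.5% ± 4.48 in H1299 siNGFR and 51.3% ± 2.48 in H1299 siCont libraries (SD, n = 3). RMRP, the RNA of RNase MRP, took 7.05% ± 4.08 in H460 siNGFR and 2.92% ± 0.663 in H460 siCont libraries. The part of these in the snoRNA shares was not tested.

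**Figure D1:**
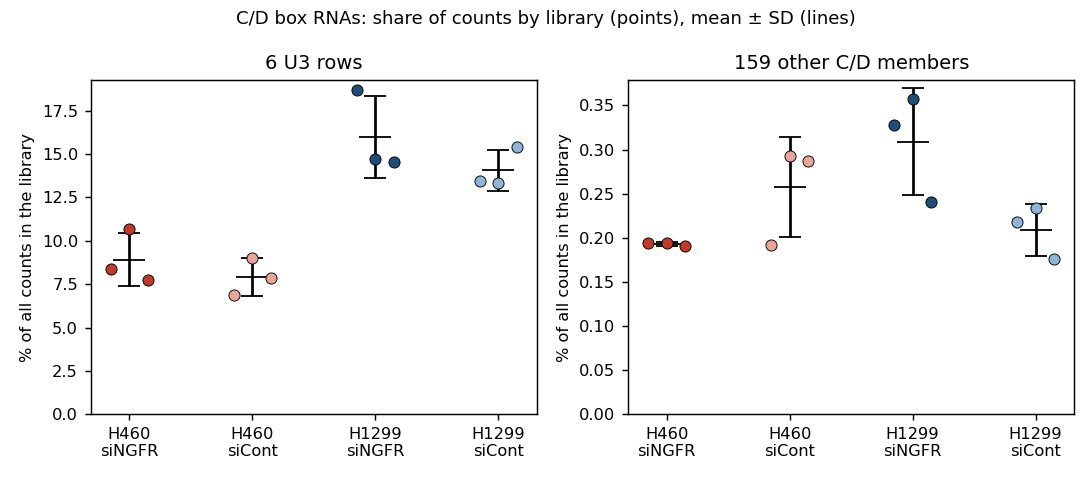
Share of all counts in each library, in percent (y axis), taken by the 6 U3 rows (left) and the 159 other C/D members (right) in H460 siNGFR, H460 siCont, H1299 siNGFR and H1299 siCont libraries. Points are libraries and lines are the mean ± SD of 3, with U3 between 6.88% and 10.7% in H460 and between 13.3% and 18.7% in H1299.

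In H460 no C/D member passed the test after siNGFR. Of 163 members tested, with SNORD98 and SNORD90 too low in counts, 0 rose and 0 fell at an adjusted p under 0.05 with edgeR's quasi-likelihood test and Benjamini-Hochberg adjustment over 19829 genes, of which 4.31% were called (1.82% higher and 2.50% lower), and DESeq2 called 2 higher and 0 lower, beside 2.23% and 2.43% of all genes. At an unadjusted p under 0.05, 7 members were higher (4.29%) and 18 lower (11%), beside 9.42% and 9.82% of all genes. The log2 fold change was below 0 for 108 of 163 members (66.3%, beside 49.3% of all genes, with 50.7% above 0), with a median of −0.13 beside 0.01 over all genes. Groups did not overlap for 8 members with higher siNGFR values and 8 with lower ones (4.91% each), beside 10.0% and 13.6% of all genes. Leaving out siNGFR library 4 gave 4 higher and 6 lower members, when 7.62% of all genes were called (4.33% and 3.28%), and leaving out siCont library 4 gave 0 and 5, when 2.91% were (1.29% and 1.62%). Changes ran from −1.23 for SNORD116-25 (0.451, 0.712 and 0.519 CPM in siNGFR libraries, against 0.832, 1.02 and 2.12 CPM in siCont libraries) to 0.97 for SNORD45C, an 18S guide, on the log2 scale. Without the members of 15q11, 82 of 135 changes lay below 0 (60.7%), with a median of −0.07. Of these 135, 7 were higher (5.19%) and 8 lower (5.93%) at an unadjusted p under 0.05.

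Outside 15q11, the members with the smallest p named for H460 were guides of ribosomal RNA. Levels are given as CPM, the count scaled to a common library size after TMM normalisation, which does not correct for length. SNORD55, a 28S guide, had 20.03, 22.2 and 21.9 CPM in siNGFR libraries, against 15.6, 16 and 18.4 CPM in siCont libraries. All siNGFR libraries lay above all siCont libraries, with a log2 fold change of 0.37 ± 0.12 (SE, edgeR adjusted p = 0.0936). SNORD36B, an 18S guide of RPL7A, had 3.00, 3.89 and 3.68 CPM in siNGFR libraries, against 1.94, 2.54 and 2.67 CPM in siCont libraries (log2 0.57, edgeR adjusted p = 0.136). SNORD49B, a 28S guide, followed with log2 0.34 (edgeR adjusted p = 0.151). On the lower side SNORD15B, a 28S guide, had 24.7, 39.3 and 31.6 CPM in siNGFR libraries, against 38.6, 43.0 and 51.1 CPM in siCont libraries, so that siNGFR library 5 overlapped the siCont range (log2 −0.46 ± 0.16, SE, edgeR adjusted p = 0.139). SNORD58B, a 28S guide of RPL17, had log2 −0.87 (edgeR adjusted p = 0.166). With scaling to the summed counts of the C/D members, SNORD55 and SNORD49B turned to −0.11 and −0.17.

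The 28 members of the imprinted region 15q11, 26 of them SNORD116 rows, mostly had lower values in H460 siNGFR cells. Their log2 fold change was below 0 for 26 of 28 (92.9%), with a median of −0.41. None passed the test, 10 had an unadjusted p under 0.05 (35.7%, beside 9.82% of all genes on the lower side) and 5 had lower values in all siNGFR libraries than in any siCont library (17.9%, beside 13.6% of all genes). These rows are not independent, since most share the host SNHG14 and some copies are identical in sequence, so the counts of rows are descriptions. SNORD116-3, the copy with the most counts per kilobase, had 10.4, 8.62 and 10.1 CPM in siNGFR libraries, against 9.71, 12.9 and 17.2 CPM in siCont libraries. The spread lay in the siCont group, where library 4 sat among the siNGFR values and library 6 was highest. SNORD116-18 had 0.951, 1.47 and 1.04 CPM in siNGFR libraries, against 1.89, 2.01 and 2.39 CPM in siCont libraries, with no overlap (log2 −0.85 ± 0.25, SE, edgeR adjusted p = 0.0827, the smallest of all members). SNORD116-2 had log2 −0.72 (edgeR adjusted p = 0.157). The summed 15q11 members took 0.00844% ± 0.000340 of counts in siNGFR and 0.0138% ± 0.00348 in siCont libraries (SD, n = 3, exact permutation p = 0.1, the smallest possible). Without siCont library 6 the median was −0.17, and without siCont library 4 it was −0.54, with 2 of the 28 lower by the test. The host SNHG14 had a log2 fold change of 0.08 ± 0.10 (SE, edgeR adjusted p = 0.728) over the same libraries.

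In H1299 none of 136 members tested passed either. On simulated counts the H1299 test called 41.8% of 67 genes changed 2-fold, so changes of this size could be missed. With edgeR's quasi-likelihood test 0 rose and 0 fell, beside 0.0211% of all genes called (0.0106% in each direction), and DESeq2 called 5 higher and 0 lower, beside 0.396% and 0.465% of all genes. At an unadjusted p under 0.05, 30 members were higher (22.1%) and 4 lower (2.94%), beside 8.45% and 9.53% of all genes. The log2 fold change was above 0 for 95 of 136 members (69.9%, beside 50.1% of all genes, with 49.9% below 0), with a median of 0.17 beside 0.00 over all genes. The siNGFR libraries lay wholly above the siCont libraries for 24 members (17.6%, beside 10.7%) and wholly below for 3 (2.21%, beside 10.1%). The 28 members of 15q11 and SNORD14D had too few counts to be tested here.

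U13, encoded by SNORD13 and needed for acetylation of 18S ribosomal RNA, had higher values in H1299 siNGFR than in H1299 siCont libraries. It had 87.9, 75.9 and 48.2 CPM in siNGFR libraries, against 22.3, 32.7 and 19.3 CPM in siCont libraries, with no overlap (log2 1.51 ± 0.26, SE, edgeR adjusted p = 0.207). SNORD87, a 28S guide of SNHG6, had 38.6, 61.1 and 12.1 CPM in siNGFR libraries, against 6.57, 7.95 and 9.25 CPM in siCont libraries (log2 2.22, edgeR adjusted p = 0.261). Library 3 held the lowest siNGFR value of both RNAs. SNORD55 had 23.8, 27.0 and 18.7 CPM in siNGFR libraries, against 12.2, 12.3 and 13.9 CPM in siCont libraries (log2 0.85, edgeR adjusted p = 0.207), so that its groups did not overlap in either line. U8, encoded by SNORD118 and needed for maturation of 28S and 5.8S ribosomal RNA, had 2.02, 2.30 and 10.3 CPM in siNGFR libraries, against 13.5, 25 and 10.4 CPM in siCont libraries (log2 −1.72, edgeR adjusted p = 0.261). Its library 3 again lay next to the siCont values. SNORD65, an 18S guide, and SNORD18C, a 28S guide of RPL4, had log2 −1.09 and −0.88 (edgeR adjusted p = 0.261 for both).

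The H1299 result turned on siNGFR library 3. Without it, 22 members were higher and 10 lower by the same test, when 11.3% and 16.6% of all genes were called higher and lower. SNORD87 then had log2 2.65 (edgeR adjusted p = 2.98e-06), SNORD13 1.72 (3.60e-05), SNORD118 −2.94 (7.53e-05) and SNORD55 0.98 (1.49e-04). SNORD43, SNORD65, SNORD18C and SNORD105, together with 4 U3 rows (SNORD3B-1, SNORD3B-2 and both of SNORD3D), were among the lower ones. The higher ones included the U6 guides SNORD8 and SNORD94, the 28S guides SNORD15A, SNORD35B and SNORD24 and the 18S guides SNORD45A, SNORD33 and SNORD42A. The long row SNORD4A (ENSG00000264577) completed the lower ones with log2 −0.55. It lies on the minus strand, opposite to the short SNORD4A row (ENSG00000238578), and neither box was found near the ends of its transcript. With 2 siNGFR libraries, these calls assume that they spread as the siCont group does. Library 3 was set apart because its values lay near the siCont libraries, so these p-values are descriptions. Leaving out any other single H1299 library called at most 0.0102% of all genes.

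**Figure D2:**
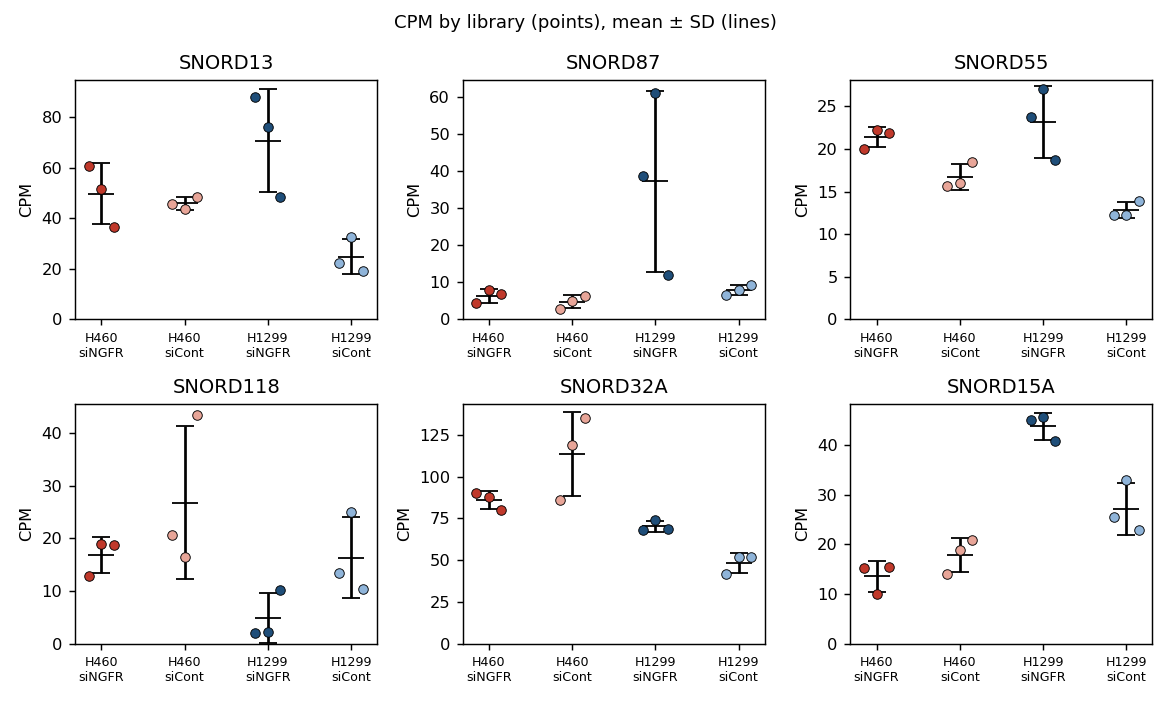
CPM of 6 members named for their smallest p (y axes from 0) in H460 siNGFR, H460 siCont, H1299 siNGFR and H1299 siCont libraries, with points for libraries and lines for the mean ± SD of 3. SNORD13 and SNORD87 are highest in H1299 siNGFR libraries 1 and 2, and SNORD118 is lowest there, at 2.02 and 2.30 CPM.

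The response in H460 minus that in H1299 asks whether the knockdown acted differently in the line with and the line without p53. Here p53 status cannot be told apart from other differences between the lines or from any difference in their preparation. On simulated counts the test of the difference of responses called 32.8% of 67 genes changed 2-fold, so changes of this size could be missed. No member passed this test (0 higher and 0 lower of 165, beside 0.426% of 21574 genes called, 0.158% higher and 0.269% lower), with 0 higher and 3 lower by DESeq2, beside 0.909% and 1.26% of all genes. At an unadjusted p under 0.05, 6 were higher (3.64%) and 16 lower (9.70%), beside 8.52% and 8.45% of all genes. The median was −0.31 beside −0.01 over all genes, and the value lay below 0 for 123 of 165 members (74.5%, beside 51.1% of all genes, with 48.9% above 0). The 28 members of 15q11 had almost no H1299 counts, so their H1299 response could not be measured. Without them the median was −0.26, and 98 of 137 lay below 0 (71.5%). SNORD13 came closest on the lower side with 60.5, 51.6 and 36.7 CPM in H460 siNGFR libraries, against 45.5, 43.6 and 48.4 CPM in H460 siCont libraries, which overlapped, and with a difference of responses of −1.40 on the log2 scale (edgeR adjusted p = 0.0740). SNORD32A lies within RPL13A and overlaps an annotated exon of it, so reads of the host cannot be told from its own. It had 90.5, 88.0 and 80.0 CPM in H460 siNGFR libraries, against 86.3, 119 and 135 CPM in H460 siCont libraries. In H1299 it had 68.0, 74.2 and 68.4 CPM in siNGFR libraries, against 41.4, 52.0 and 51.6 CPM in siCont libraries. Its ranges overlapped in H460 and not in H1299, and its responses differed by −0.94 (edgeR adjusted p = 0.0757). SNORD15A, a 28S guide of RPS3, differed by −1.09 (edgeR adjusted p = 0.0828). Without H1299 siNGFR library 3, 5 members were higher and 15 lower, when 9.32% and 8.65% of all genes were.

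By role, the U3 rows had median responses of 0.40 in H460 and −0.52 in H1299, a median difference of 0.91, with 6 of 6 above 0 in H460 and 5 of 6 below 0 in H1299. None of these passed the test, and the rows are not independent. SNORD3A, which holds most U3 counts, was the exception in H1299 with log2 0.45 ± 0.36 (SE, edgeR adjusted p = 0.498), and the U3 share of counts there was 15.98% ± 2.35 in siNGFR and 14.05% ± 1.17 in siCont libraries (SD, n = 3, exact permutation p = 0.3). On the side where the H460 response was higher, the smallest p belonged to SNORD3B-1 (difference 1.03, edgeR adjusted p = 0.214), SNORD38A, a 28S guide (0.87, edgeR adjusted p = 0.257), and SNORD3D (ENSG00000262202) (0.92, edgeR adjusted p = 0.263). The 18S guides had medians of −0.15 in H460 and 0.03 in H1299, and the 28S guides −0.01 and 0.21 in the same order. The 40 members in no role list had a median of −0.06 in H460 and 0.29 in H1299.

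**Figure D3:**
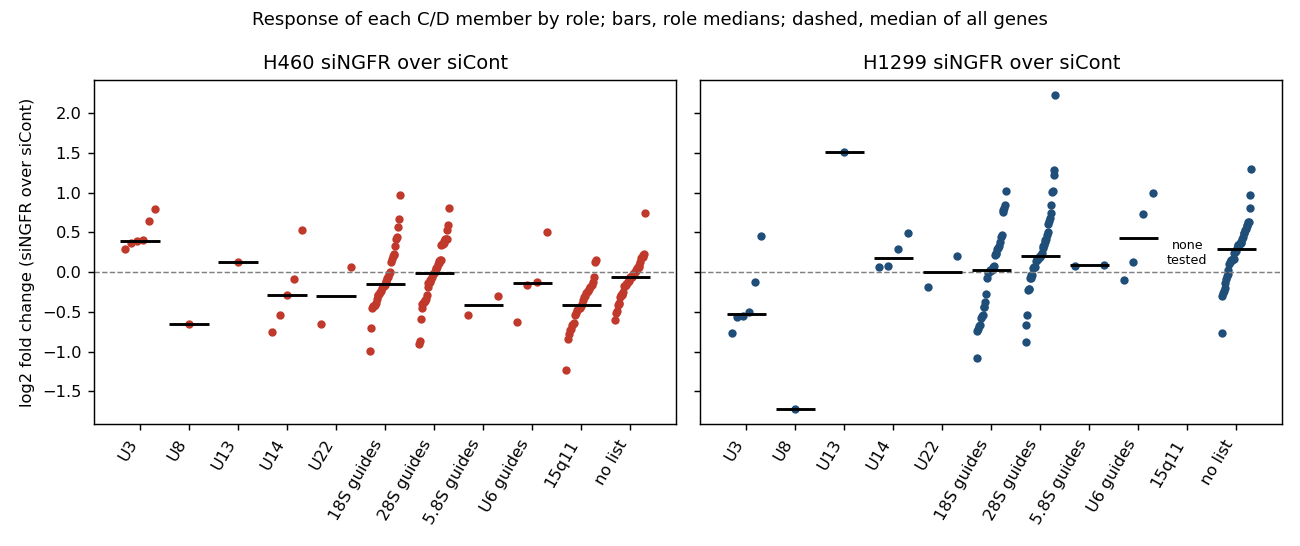
Log2 fold change of siNGFR over siCont (y axis) for each tested member by role in H460 (left) and H1299 (right), with bars at role medians and a dashed line at the median of all genes. The 15q11 members centre on −0.41 in H460 and were not tested in H1299, and U8 and U13 stand at −1.72 and 1.51 in H1299.

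Between the lines, 93 of 164 members tested differed in siCont cells. Of these, 47 were higher in H460 than in H1299 and 46 lower (56.7% in all, 28.7% and 28% by direction, with edgeR and Benjamini-Hochberg adjustment), beside 63.2% of all 20097 genes (31.9% and 31.3%). At an unadjusted p under 0.05, 49 were higher and 51 lower, beside 33.1% of all genes in each direction. The lines did not overlap for 46 members with higher and 37 with lower H460 values, beside 67.2% of all genes in either direction (34.4% and 32.9%), and 91 of 164 log2 fold changes lay below 0, beside 50.7% of all genes, with 49.3% above 0. The higher ones included all 28 members of 15q11, and without these the split was 19 higher and 46 lower of 136, with a median of −0.32 beside −0.02 over all genes. The split depended on scaling, being 62 higher and 39 lower with library size alone, when the median of all genes was 0.25, and 104 and 1 when values were taken relative to the C/D pool, when it was 1.05. Of the calls, 42 higher and 30 lower held with any 1 library left out, the 28 of 15q11 and the 6 of U3 among them. The 28 of 15q11 had passed the filter on low counts through H460 alone, so their calls are a description. SNORD14D, SNORD98 and SNORD90 were each too low in counts to be tested within 1 line, so their calls are descriptions too. The markers KRT19 and COL3A1 also differed between the lines, with at most 2 and 4 counts in any H1299 library, and their part was not tested. H/ACA box RNAs, the other main class of snoRNAs, split as 21 higher and 39 lower of 111.

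**Figure D4:**
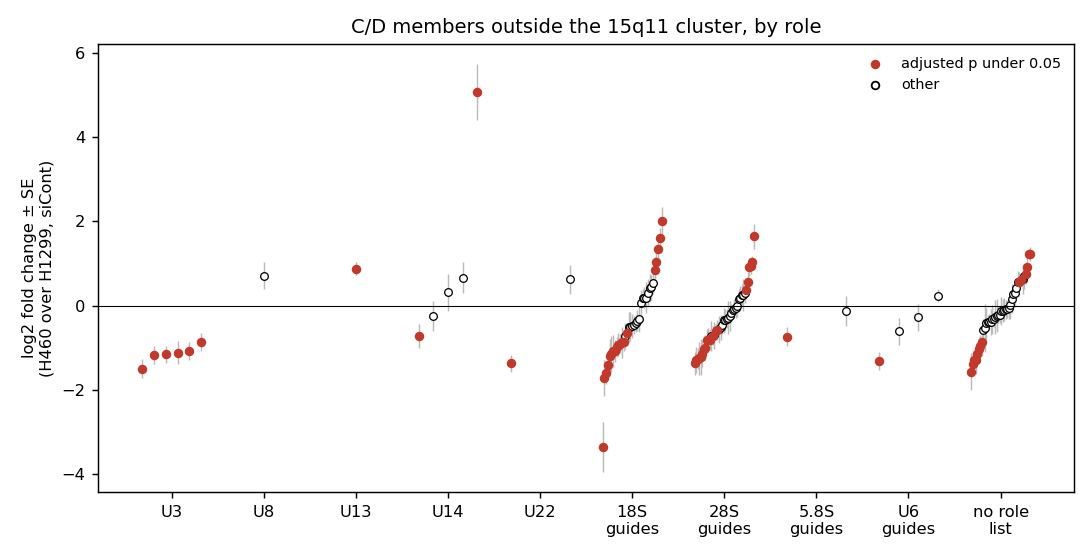
Log2 fold change of H460 over H1299 in siCont cells ± SE (y axis) for the members outside 15q11, by role, with filled points for an adjusted p under 0.05. The 6 U3 rows lie between −1.50 and −0.87. The highest point is SNORD14D, which was tested through its H460 counts alone.

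U3 was lower in H460 than in H1299 in all of its 6 rows. SNORD3A, the largest, had 25192, 40999.5 and 30129 CPM in H460 siCont libraries, against 63736, 61015 and 83303 CPM in H1299 siCont libraries, with no overlap (log2 −1.12 ± 0.27, SE, edgeR adjusted p = 0.00208). SNORD3C had log2 −1.50, the SNORD3D rows −1.18 (ENSG00000262202) and −1.16 (ENSG00000277947), SNORD3B-2 −1.07 and SNORD3B-1 −0.87, all past the threshold. Relative to the C/D pool, of which U3 is the bulk, none passed and the median was −0.06. With siNGFR, SNORD3A had 39223, 66553 and 43376 CPM in H460 and 112909, 95453 and 76741 CPM in H1299 libraries. The rows have annotated lengths of 218 to 699 bases, 5 of their annotated transcripts are 97.7% to 100% identical, SNORD3B-1 and SNORD3B-2 hold the same transcript, and the rows of SNORD3D overlap. How reads were divided among the copies is therefore uncertain, and the rows are not independent.

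The imprinted region 15q11, expressed from the paternal allele and best known from Prader-Willi syndrome, differed between the lines in all 28 of its members. These passed the filter on low counts through H460 alone, so their number past the test is a description. Its SNORD116 family, without a known ribosomal RNA target, had 16057 counts in H460 and 7 in H1299 libraries over 34 rows of the table, with overlapping rows counted in each. SNORD109 had 496 and 0, SNORD64 had 86 and 0, SNORD107 had 27 and 0, and SNORD108 had 4 and 0. SNORD115, the neighbouring family of 50 rows, had 35 counts in H460 and 1 in H1299 libraries, so that it was close to the floor in both. All of these lay almost wholly in H460. The families SNORD112, SNORD113 and SNORD114 of the other imprinted snoRNA region, 14q32, had 0 counts in H460 and 6 in H1299 libraries over 48 rows, and none was a member.

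In siCont cells 26 of the 28 members of 15q11 had no count in H1299. Against a floor of 3 counts over that group, they were at least 17.4-fold (SNORD116-27) to at least 267-fold higher (SNORD116-3) in H460, and with these members at their bound the median was 6 on the log2 scale. SNORD116-3 had 210, 366 and 503 counts in H460 siCont libraries, against 0 in each H1299 siCont library. SNORD116-20, a row that GENCODE 29 annotates as the long noncoding RNA AC124312.3 and that covers 2 other SNORD116 rows, had 1282 counts in H460 siCont and 2 in H1299 siCont libraries, a ratio of 477 in CPM (95% interval 132 to 3939, counting error only). SNORD116-25 had 109 and 1, a ratio of 81.0 (14.2 to 3230). All 28 passed the test (largest edgeR adjusted p = 3.28e-05). The filter on low counts kept them through H460 alone, so these p-values and their order are descriptions too. Those with the smallest p and enough counts were SNORD116-20, SNORD116-23, SNORD116-3, SNORD116-9, SNORD116-7 and SNORD116-5.

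Copies of SNORD116 within H460 ranged widely. SNORD116-3 had 13.3 ± 3.76 CPM in siCont libraries (SD, n = 3), SNORD116-23 7.25 ± 0.721 and SNORD116-25 1.32 ± 0.695, although all are of about the same length. The 25 short copies were 66.7% to 100% identical in pairs, with a median of 87.0%. Copies 1 to 9 were 92.7% to 100% identical, copies 11 to 24 were 83.7% to 100%, and copies 25 to 29 were 78.3% to 89.1%. Of the sequences printed above, SNORD116-3 and SNORD116-23 are 86.3% identical, and SNORD116-25 is 70.5% identical to the first and 72.8% to the second of these. Copies 3 and 9, 5 and 7, and 17 and 19 are identical in sequence and had nearly equal counts, so the split of reads between them is uncertain.

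**Figure D5:**
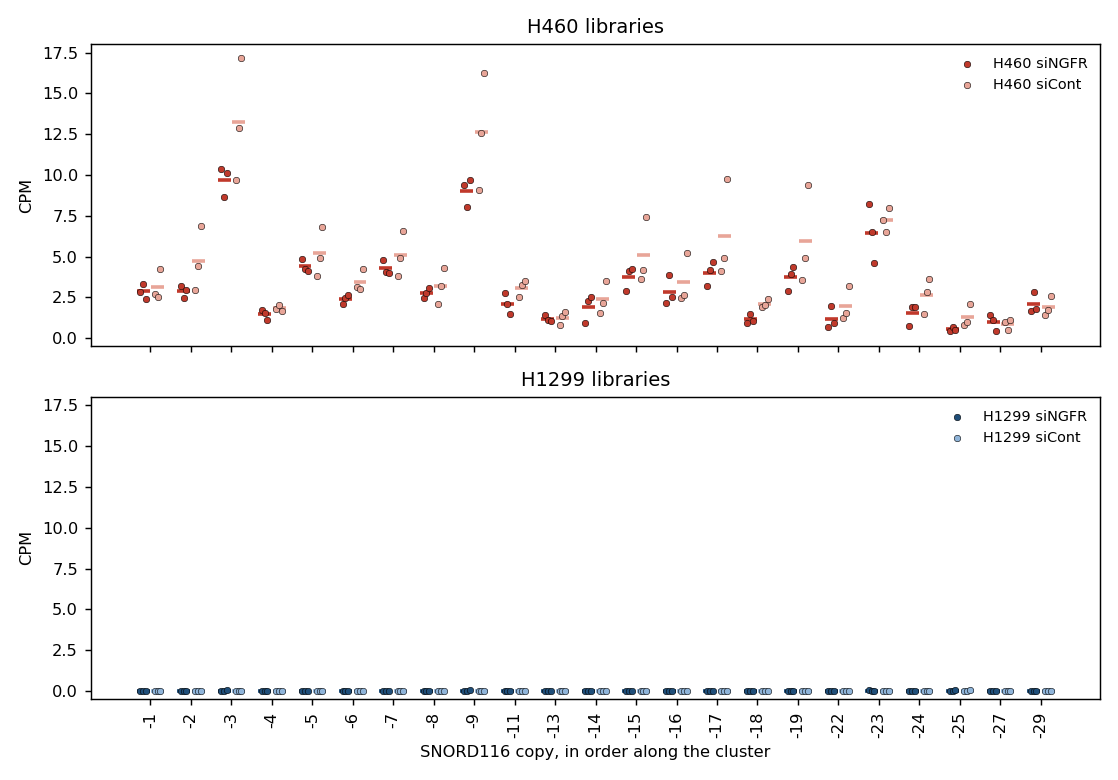
CPM of the numbered short SNORD116 copies in order along the cluster (x axis) in H460 (top) and H1299 (bottom) libraries, siNGFR left of siCont, with points for libraries and bars for means of 3. In H460 siCont libraries the copies reach 17.2 CPM (SNORD116-3), and in H1299 libraries nearly all values are 0.

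Other genes of the region were read in the same libraries. SNRPN, a paternally expressed splicing protein gene, had 1089 to 1251 counts in H460 siNGFR and 1295 to 1557 in H460 siCont libraries, against 0 in H1299 siNGFR and 0 to 3 in H1299 siCont libraries. SNHG14, the host of the SNORD116 copies, had 920, 1116 and 1161 counts in H460 siCont libraries, against 25, 26 and 8 in H1299 siCont libraries (log2 5.33 ± 0.21, SE, edgeR adjusted p = 1.97e-11). The paternally expressed gene NDN had 22 to 29 counts in H460 siCont libraries and 0 in each H1299 library. MAGEL2, also paternally expressed, had 0 to 9 counts in H460 and 0 to 3 in H1299 libraries and was near the floor in both lines. UBE3A, which lies beside the cluster and is imprinted only in neurons, was on in both lines, with 23.9 CPM in H460 siCont and 20.9 CPM in H1299 siCont libraries on average (log2 0.18 ± 0.11, SE, edgeR adjusted p = 0.188).

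Of the other processing RNAs, U13 (SNORD13) was higher in H460, with 45.5, 43.6 and 48.4 CPM, against 22.3, 32.7 and 19.3 CPM in H1299 siCont libraries (log2 0.88, edgeR adjusted p = 2.05e-04). U8 (SNORD118) had 20.7, 16.4 and 43.3 CPM in H460, against 13.5, 25 and 10.4 CPM in H1299 siCont libraries, which overlapped (log2 0.71, edgeR adjusted p = 0.0698). U22, an RNA of 18S processing encoded by SNORD22 (ENSG00000277194) in SNHG1, was lower in H460, with 11.2, 18.4 and 17.8 CPM, against 35.3, 54.6 and 32.4 CPM in H1299 siCont libraries (log2 −1.37 ± 0.20, SE, edgeR adjusted p = 3.64e-05). Its second row (ENSG00000278527) did not pass, at 0.62 (edgeR adjusted p = 0.133).

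U14, which serves both processing and methylation of 18S, has 5 copies among the members. SNORD14D, a copy within HSPA8, had 3.00, 6.87 and 9.57 CPM in H460, against 0, 0 and 0.636 CPM in H1299 siCont libraries. It passed the filter on low counts through H460 alone, so its place among the calls is a description, and all its H1299 siCont counts came from library 3. With siNGFR it had 1.95, 4.10 and 5.41 CPM in H460, against 0.341, 0.273 and 0.475 CPM in H1299 libraries, so the lines did not overlap in either treatment. SNORD14E, the copy with the most counts, had 4.07, 9.27 and 18.5 CPM in H460, against 9.94, 17.0 and 11.4 CPM in H1299 siCont libraries, which overlapped (log2 −0.25, edgeR adjusted p = 0.558). From the same host, SNORD14C was lower in H460 (log2 −0.72, edgeR adjusted p = 0.0372, 0.111 without H460 siCont library 4), and HSPA8, a heat shock protein, had 0.15 (edgeR adjusted p = 0.349). The 5 copies are 75.6% to 86.8% identical in sequence. SNORD14A and SNORD14B, in RPS13, had log2 0.66 and 0.32 and did not pass.

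Of 35 guides of 18S ribosomal RNA, 5 were higher and 14 lower in H460, beside 31.9% and 31.3% of all genes, with a median of −0.48. With any 1 library left out, 4 of the 5 and 8 of the 14 held. SNORD43, in RPL3, had 1.99, 2.36 and 4.96 CPM in H460, against 8.86, 11 and 8.56 CPM in H1299 siCont libraries (log2 −1.59 ± 0.26, SE, edgeR adjusted p = 9.31e-05). SNORD100 in RPS12, the most abundant 18S guide per kilobase, had 42.4, 76.7 and 85.8 CPM in H460, against 99.1, 164 and 107 CPM in H1299 siCont libraries (log2 −0.86, edgeR adjusted p = 0.00437). Neither overlapped between the lines. The higher ones were SNORD42A (log2 2.02), SNORD33 (1.61), SNORD20 (1.35), SNORD57 (1.03) and SNORD70 (ENSG00000212534) (0.85), of which the last was lost without H460 siCont library 6 (edgeR adjusted p = 0.144). SNORD98, among the least abundant members, had 0, 0.0353 and 0.171 CPM in H460, against 0.692, 0.865 and 0.925 CPM in H1299 siCont libraries. It passed the filter through H1299 alone, and its place among the 14 lower ones is a description.

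Of 40 guides of 28S ribosomal RNA tested, 6 were higher and 14 lower, again beside 31.9% and 31.3% of all genes, with a median of −0.35. With any 1 library left out, 4 of the 6 and 7 of the 14 held. SNORD21 in RPL5 had 5.50, 7.61 and 12.3 CPM in H460, against 19.7, 26.4 and 15.2 CPM in H1299 siCont libraries (log2 −1.26, edgeR adjusted p = 3.71e-04). SNORD121B, SNORD49A and SNORD121A had −1.38, −1.29 and −1.26. On the higher side, SNORD49B had 27.3, 24.3 and 23.6 CPM in H460, against 14.9, 10.7 and 10.8 CPM in H1299 siCont libraries (log2 1.03 ± 0.14, SE, edgeR adjusted p = 1.35e-05). SNORD49A and SNORD49B share the host LRRC75A-AS1 and differed in opposite directions. SNORD1C (1.64), SNORD24 (0.95), SNORD60 (0.91), SNORD99 (0.57) and SNORD55 (0.38) were also higher. SNORD99 lost the call without H460 siCont library 6 (edgeR adjusted p = 0.230) and SNORD55 without H1299 siCont library 2 (0.0691). SNORD17, the most abundant guide, had 346, 664 and 380 CPM in H460, against 353, 298 and 481 CPM in H1299 siCont libraries, which overlapped (log2 0.29, edgeR adjusted p = 0.282).

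Among guides of other RNAs, SNORD67, which guides methylation of the spliceosomal U6 RNA, was lower in H460, with 2.59, 2.93 and 3.45 CPM, against 7.30, 9.84 and 5.26 CPM in H1299 siCont libraries (log2 −1.32 ± 0.22, SE, edgeR adjusted p = 9.55e-05). The U6 guides SNORD8, SNORD9 and SNORD94 did not pass. SNORD96A, a guide of 5.8S, had log2 −0.74 (edgeR adjusted p = 0.00894, and 0.0520 without H1299 siCont library 2). The 40 members in no role list held 6 higher and 8 lower ones. The higher ones included SNORD32A (log2 1.23) and the long minus-strand row SNORD4A (ENSG00000264577) (1.23). The lower ones included SNORD90 (−1.57), SNORD19B (−1.38), SNORD117 (−1.30) and SNORD54 (−1.29). SNORD90 was too low in counts to be tested within H460, so its place among the calls is a description. Relative to the C/D pool, the lower values of SNORD43, SNORD67 and SNORD22 (ENSG00000277194) were −0.55, −0.28 and −0.33 and none of them passed.

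Host genes followed their snoRNAs only in part. SNHG1, a noncoding host whose exons carry no known protein, holds 7 members, of which 5 were lower in H460 (median log2 −0.82), and was itself lower (−0.91 ± 0.23, SE, edgeR adjusted p = 0.00353). Of these 5, SNORD25, SNORD30 and SNORD28 lost the call without H1299 siCont library 2, at edgeR adjusted p of 0.0575, 0.0726 and 0.0871. All 7 members overlap annotated exons of SNHG1, so reads of host and members cannot be told apart. GNL3, which encodes nucleostemin, holds 4 members that were all lower in H460 (median −1.27), whereas the host was higher (0.45 ± 0.15, SE, edgeR adjusted p = 0.0161). SNORD69 of this host had 6.10, 6.17 and 9.61 CPM in H460, against 13.7, 17.1 and 7.40 CPM in H1299 siCont libraries (log2 −0.81, edgeR adjusted p = 0.0109). Its H1299 siCont library 2 was highest and library 3 overlapped the H460 range, and both it and SNORD19 (ENSG00000252787) were lost without H1299 siCont library 2, at edgeR adjusted p of 0.0600 and 0.355. RPL13A holds SNORD32A, SNORD33, SNORD34 and SNORD35A, of which the first pair was higher (1.23 and 1.61) as was the host (0.63). RPL4, with 2 of 4 members lower, was higher itself (0.38, edgeR adjusted p = 0.0194). The members of RPL13A and RPL4 overlap annotated exons of their hosts too, so the same limit holds for them.

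Across the other hosts, a host's change and the median change of its members went together weakly. Without SNHG14 and the host that is itself a member, Spearman's rho was 0.133 for the H460 response (63 hosts), and 0.0560 for the H1299 response, 0.241 for the difference of responses and 0.357 for the lines (64 hosts each). These are descriptions across genes that share libraries and, for 83 members, exonic reads. Pearson's r was 0.0939, 0.0716, 0.188 and 0.378 in the same order. Signs of members and host matched in 32 of 63 hosts in H460, in 35 of 64 in H1299 and in 42 of 64 between the lines.

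SnoRNAs such as U24, U43, U48 and U49 serve as reference RNAs in RT-qPCR of microRNAs, and 10 of 14 listed ones were members. Over the 12 libraries their coefficient of variation had a median of 36.2%, beside 42.1% for all 165 members. The 165 include the 28 members of 15q11, nearly absent from H1299, with coefficients of 106% to 133%, and no reference RNA is among these. SNORD43 ranged from 1.20 to 11 CPM, a ratio of 9.13 between the highest and the lowest library, and SNORD49A from 1.34 to 9.62 CPM, a ratio of 7.18. The narrowest was SNORD24, from 6.35 to 17.3 CPM (ratio 2.72), followed by SNORD61 (ratio 2.77). Between the lines SNORD24 was higher in H460 (log2 0.95), and SNORD43 (−1.59), SNORD49A (−1.29), SNORD96A (−0.74) and SNORD48 (−0.59) were lower, of which SNORD48 too lost the call without H1299 siCont library 2 (edgeR adjusted p = 0.203). SNORD38B, SNORD58B, SNORD61, SNORD68 and SNORD95 did not pass, and no reference RNA passed in either siNGFR comparison with all libraries. Without H1299 siNGFR library 3, SNORD43 (log2 −1.01, edgeR adjusted p = 9.94e-04), SNORD95 (0.59, 0.0140) and SNORD24 (0.75, 0.0280) passed in H1299. Since that library was set apart for its values, these p-values are descriptions.

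Of the proteins that make up the particle, fibrillarin (FBL), the methyltransferase, was lower in H460 than in H1299 siCont cells, with 41.1 ± 7.16 and 76.0 ± 8.29 CPM in this order (SD, n = 3, log2 −0.90, edgeR adjusted p = 3.86e-05). NOP58 was higher (log2 0.62, edgeR adjusted p = 2.49e-04), and NOP56 and NHP2L1, the gene of SNU13, did not pass (0.09 and −0.06). None of the 4 passed the test after siNGFR in either line. The assembly and maturation list held 7 higher and 6 lower of 24 genes between the lines, and the list of U3 particle and processome proteins 15 higher and 2 lower of 19, beside 31.9% and 31.3% of all genes. NOL6 (1.44), HEATR1 (1.34), UTP20 (1.30) and WDR43 (1.11) led the higher ones, whereas UTP18 (−1.04) and FTSJ3 (−0.64) were lower, so most processome genes were higher in the line in which the U3 rows were lower. NUFIP1, a scaffold of C/D particle assembly, fell in H460 siNGFR cells, with 1.35, 0.879 and 0.865 CPM, against 2.08, 2.01 and 2.19 CPM in H460 siCont libraries (log2 −1.02 ± 0.25, SE, edgeR adjusted p = 0.0422). It was the sole gene of the 3 lists past the threshold in a siNGFR comparison, and leaving out any H460 library other than siNGFR library 4 ended the call, at edgeR adjusted p of 0.0773 to 0.205, as did 1 fit of the 12 libraries (0.0620) and scaling to the C/D pool without U3 (0.295).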

How the data were processed

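The authors deposited read counts per gene and library, made from ribosomal-RNA-depleted Ion Torrent libraries. STAR, Bowtie2 and hg38 are named in the submitters' processing notes. For the counting program and strandedness, details were not given in the sources used here. RPKM and repeated counts (24 columns) and the authors' EBSeq fold changes and probabilities were not used. Of 64253 genes, 16450 had no count and 10893 repeated the counts of another gene, leaving 36910. These were fitted with edgeR 4.0.16 in R 4.3.3 (filterByExpr, TMM, quasi-likelihood test, Benjamini-Hochberg, two-sided, threshold 0.05), within a line, between lines, and for the difference of responses in 1 fit of 12 libraries. Depth was 16672164 to 36116823 counts. The test was checked on simulated counts with known changes. Of 67 genes changed 1.5-fold it called 38.8% in H460, 2.985% in H1299, 0% for the difference of responses and 47.8% between the lines. Of 67 changed 2-fold it called 86.6%, 41.8%, 32.8% and 92.5% in this order, and of 66 changed 4-fold 100%, 98.5%, 93.9% and 100%. Most 2-fold changes were thus missed in H1299 and for the difference of responses. Members and gene lists (roles, hosts, particle proteins) were chosen with earlier results of these data known. Named members were, for each comparison, up to 6 per direction with the smallest p past the threshold and a mean of at least 50 counts, or up to 3 that did not pass, the 8 with the most counts per kilobase, the most abundant processing and imprinted RNAs and the reference RNAs. Others were chosen after their values were seen. Coordinates and sequences came from GENCODE 29 (GRCh38), and some items are not reported here. H460 columns match groups only, since they are numbered 4 to 6 and the labels 1 to 3. Alternatives were other scalings and filters, DESeq2 1.42.0, replicate blocks and left-out libraries.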

Additional observations from a re-analysis of the deposited data

How the results depend on the processing

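In H460, where 0 members were higher and 0 lower, library size alone gave 40 lower (21.2% of all genes were called lower, and the median of all genes was −0.32), the C/D pool 28 lower (8.25% of all genes), the C/D pool without U3, added after seeing the data, 1 higher (0.585%), no filter 4 higher and 17 lower (2.10% and 2.29%), and DESeq2 2 higher (2.23%). The replicate block gave 2 higher and 1 lower (1.32% and 1.5%), and with it NUFIP1 had an edgeR adjusted p of 0.0677. In H1299 (0 and 0) the numbers higher were 1 with library size alone (0.0687% of all genes), 2 with the C/D pool (0.0951%), 6 with no filter (0.241%), 5 with DESeq2 (0.396%) and 3 in 1 fit of the 12 libraries (0.297%), and the replicate block left 0 and 0. For the difference of responses (0 and 0) the numbers lower were 23 with library size alone (13.3%), 8 with the C/D pool (1.43%), 5 with no filter (0.642%) and 3 with DESeq2 (1.26%). Between the lines (47 higher, 46 lower) the C/D pool gave 104 and 1 (66.9% and 8.53%), and at least 10 counts in every library 15 higher, which removes the 15q11 members. Leaving out 1 library gave 0 to 4 higher and 0 to 6 lower in H460 (the highest without siNGFR library 4), 0 to 22 and 0 to 10 in H1299, 0 to 5 and 0 to 15 for the difference (both highest without H1299 siNGFR library 3), and 42 to 54 higher and 32 to 59 lower between the lines. The cause of these shifts was not tested.

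The share of counts of all members in H460 had a log2 ratio of 0.16 and turned to −0.0888 relative to other genes under 400 bases (exact permutation p = 0.7) and to −0.42 without U3 (p = 0.3, added after seeing the data). Leaving out 1 library gave 0.01 to 0.26 in H460 and 0.07 to 0.26 in H1299. SNORD55 and SNORD49B in H460 turned to −0.11 and −0.17 relative to the C/D pool. Of the other values of single named members under an alternative, 438 kept direction and side of the threshold, 46 newly passed it and 6 no longer did.

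Same-numbered siNGFR and siCont libraries deviated together by correlations of 0.03, 0.07 and 0.02 in H460 and 0.26, −0.16 and 0.15 in H1299. In H1299, siNGFR library 2 and siCont library 1 reached 0.24. The numbers thus showed no clear pairing, though 3 libraries per group cannot exclude one. No paired analysis was possible because the lines share no numbers, for the comparison between lines (SNORD63, ENSG00000222937, was too low in counts to be tested there). Counts under about 50 limit many 15q11 and low-abundance members.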
